A study of Mus musculus with 8 samples.

Results

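Translation factors load ribosomes onto messenger RNA and move them along it, and their transcripts were followed here in activated mouse B lymphocytes that lacked Myc, Max or both. The members were taken by gene symbol, as every protein-coding gene whose symbol begins with Eif1 to Eif6 or with Eef1 or Eef2, without pseudogenes. The GENCODE vM21 annotation of GRCm38 held 68 such genes, of which 65 were among the 15681 genes measured and 64 passed the filter on low values (1 RPM or more in at least 2 libraries). Eef1a2, Eef1akmt4 and Eif4e1b were not analysed here, and Eef1akmt3, at 0.206 to 0.89 RPM, was left untested.

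Splenic B cells of mice 8 to 10 weeks old were cultured with lipopolysaccharide at 20 µg/ml and interleukin 4 at 20 ng/ml, which drive B cells to divide and differentiate, and were harvested at 72 h. All 4 groups had this treatment and differed in genotype: heterozygous controls (control), Myc knock-out (Myc_KO), Max knock-out (Max_KO) and the knock-out of both genes (double_KO), with 2 libraries each. Max is the partner with which the transcription factor Myc pairs in order to bind DNA. The sources used here give neither the recombined alleles, nor the driver of the deletion, nor the gene or genes for which the controls were heterozygous. They do not say if a group's 2 libraries stem from different mice. The Y-linked Eif2s3y was expressed in control 1, Myc_KO 2, Max_KO 2 and double_KO 2. The other library of each group carried the sex-linked Xist at 863 to 985 RPM. By these transcripts the libraries of a group differ in sex and are not from the same mouse. The spread on which the p-values rest thus includes a difference of sex.

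The labels of 2 libraries conflict: double_KO 1 is Myc_KO in its description and Myc_KO 2 is double_KO there, and the titles, which name the data columns, were followed. Max stood at 28.6 and 31.2 RPM in double_KO 1 and 2, 70.4 and 59.8 in Myc_KO 1 and 2, 16.4 and 15.5 in Max_KO, and 55 and 54.5 in the controls. Reads over the whole gene do not show whether a transcript is shortened by a deletion, and Myc, at 111 and 116 RPM in the controls, was at 48.3 and 55.7 in Myc_KO, 38.7 and 55.3 in double_KO, and 192 and 176 in Max_KO. The libraries held between 14883239 and 17908061 estimated reads each, with the total at 1.09 and 1.04 times the effective size for the controls and at 0.956 to 0.995 times for the knock-outs. All 7 B-cell markers were present in every library, summing to between 13500 and 17100 RPM. Of 9 T-cell genes, 7 were higher in all 6 knock-out libraries than in both controls, among them Cd3e (0 and 0.243 RPM against 0.932 to 3.33), Cd8a (0.996 and 1.33 against 6.91 to 20.9) and Lck (34.1 and 38.3 against 60.9 to 113), while Thy1 was lower (323 and 275 against 71.1 to 228) and Cd5 overlapped. Their sum, most of it Thy1 and Lck, was 318 to 362 RPM for controls and 191 to 307 for knock-outs. All 4 NK-cell genes were higher in every knock-out library, with sums of 0.747 to 0.849 against 3.39 to 17.8, and Ncr1 and Klrd1, at 0 in both controls, reached 0.849 and 0.522 in the knock-outs. Of 4 myeloid genes, with sums of 2.44 to 3.39 against 8.79 to 29.9, Itgam and Adgre1 (0.809 and 1.76 against 5.43 to 27.1) were higher in every knock-out library, and Lyz2 and Csf1r overlapped, the latter at 0 in 4 knock-out libraries. No erythroid marker was analysed here, and the part of other cells in the results was not tested. The 5 plasma-cell markers summed to 1210 and 1260 RPM for the controls and to between 574 and 1100 for the knock-outs, and their part was not tested either. Of these 5, Xbp1 was lower in every knock-out library (793 and 680 RPM against 225 to 431) and the other 4 overlapped: Jchain was at 37.3 and 35.4 in Max_KO against 210 and 255 in the controls, whereas Sdc1 was at 8.23 to 16.5 in Myc_KO and double_KO against 5.98 and 5.94. In such bulk samples fewer cells of a type and less RNA per cell cannot be told apart.

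Initiation begins when eIF2, carrying GTP and the initiator tRNA, joins the small ribosomal subunit together with eIF1, eIF1A, eIF3 and eIF5, and the eIF4F complex brings this assembly to the capped end of a messenger RNA. Cells slow the process at 2 points: eIF2 kinases phosphorylate eIF2 and block its recharging by eIF2B, and the eIF4E-binding proteins hold the cap-binding protein away from eIF4F until the kinase mTOR phosphorylates them. Once the subunits have joined, the elongation factors eEF1 and eEF2 deliver aminoacyl-tRNA and move the ribosome. Activated B cells enlarge and raise protein synthesis before they secrete antibody, and Myc is known for promoting genes of ribosome production and translation.

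Most translation factor transcripts that changed were lower in the knock-outs, led by elongation factors, eIF3 subunits and Eif4ebp1, while 3 of the 4 eIF2 kinases, Eif4ebp2 and Eif4g2 were higher in each of the 3 comparisons with the control. Of the 64 tested members, 40 passed the test in Myc_KO, 8 higher and 32 lower, where 45.4% of all 12489 tested genes passed, 24% higher and 21.4% lower. In Max_KO 34 passed, 7 higher and 27 lower, against 39.7% of all genes (22.3% higher and 17.4% lower). In double_KO 30 passed, 10 higher and 20 lower, against 38.6% (21.8% higher and 16.8% lower). The test was limma's moderated test on the log2 values, two-sided, with Benjamini-Hochberg adjustment over all tested genes and a threshold of 0.05, and a member that "rose" or "fell" passed it. Where 3 log2 changes stand together they are for Myc_KO, Max_KO and double_KO in that order, each against the control, with the limma standard error (SE), which is the same for the 3. RPM is estimated reads per 1000000 of the effective library size. Median log2 changes of the members were -0.35, -0.26 and -0.16 in Myc_KO, Max_KO and double_KO, and those of all tested genes 0.0018, 0.018 and 0.023. The 3 comparisons share the same 2 control libraries, so their values are given side by side.

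In all 3 comparisons, 20 members fell, where 12.1% of all tested genes did, and 6 rose, where 17.2% did. The 20 were Eef1a1, Eef1b2, Eef1d, Eef1g, Eef2, Eif2a, Eif2b2, Eif3d, Eif3e, Eif3f, Eif3h, Eif3i, Eif3k, Eif3l, Eif4a1, Eif4b, Eif4e2, Eif4ebp1, Eif4ebp3 and Eif5a, and under quantile normalization Eef1a1 (in Max_KO and double_KO) and Eef2 (in all 3) had changes above 0. That scaling also ended the calls of Eef1a1 in Myc_KO and of Eef1g, Eif4a1 and Eif5a in double_KO. The 6 that rose were Eif2ak1, Eif2ak2, Eif2ak3, Eif4ebp2, Eif4g1 and Eif4g2. Another 18 members passed in 1 or 2 comparisons and 20 in none. The control and knock-out libraries did not overlap for 53, 52 and 50 of the 64 members in Myc_KO, Max_KO and double_KO, where 75.1%, 73.6% and 73.6% of all genes did not. Scaled to the same total of reads, 20%, 20.6% and 33.3% of called members higher became 32.4%, 37.5% and 44.8%, while that scaling moved the median of all genes to 0.15, 0.12 and 0.14. With the 6 libraries whose labels do not conflict, 6 rose and 24 fell in Myc_KO and 7 rose and 11 fell in double_KO. With groups from the descriptions the counts were 8 and 25, and 9 and 20, and calls were lost for Eef1a1 in all 3 groups, for Eif1a, Eif2b4, Eif2s2, Eif3b, Eif4h, Eif5 and Eef1e1 in Myc_KO, for Eif2b5, Eif3b and Eif4g1 in Max_KO, and for Eif3a and Eif5b in double_KO. Fits that leave out a library of a compared group gave fewer calls among all tested genes too, and not only among members. Without control 1, 21, 15 and 10 members fell in Myc_KO, Max_KO and double_KO. In double_KO 10 fell without double_KO 1. Without control 2, 5 rose in Myc_KO and 6 in double_KO, and 6 rose in double_KO without double_KO 2.

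**Figure D1:**
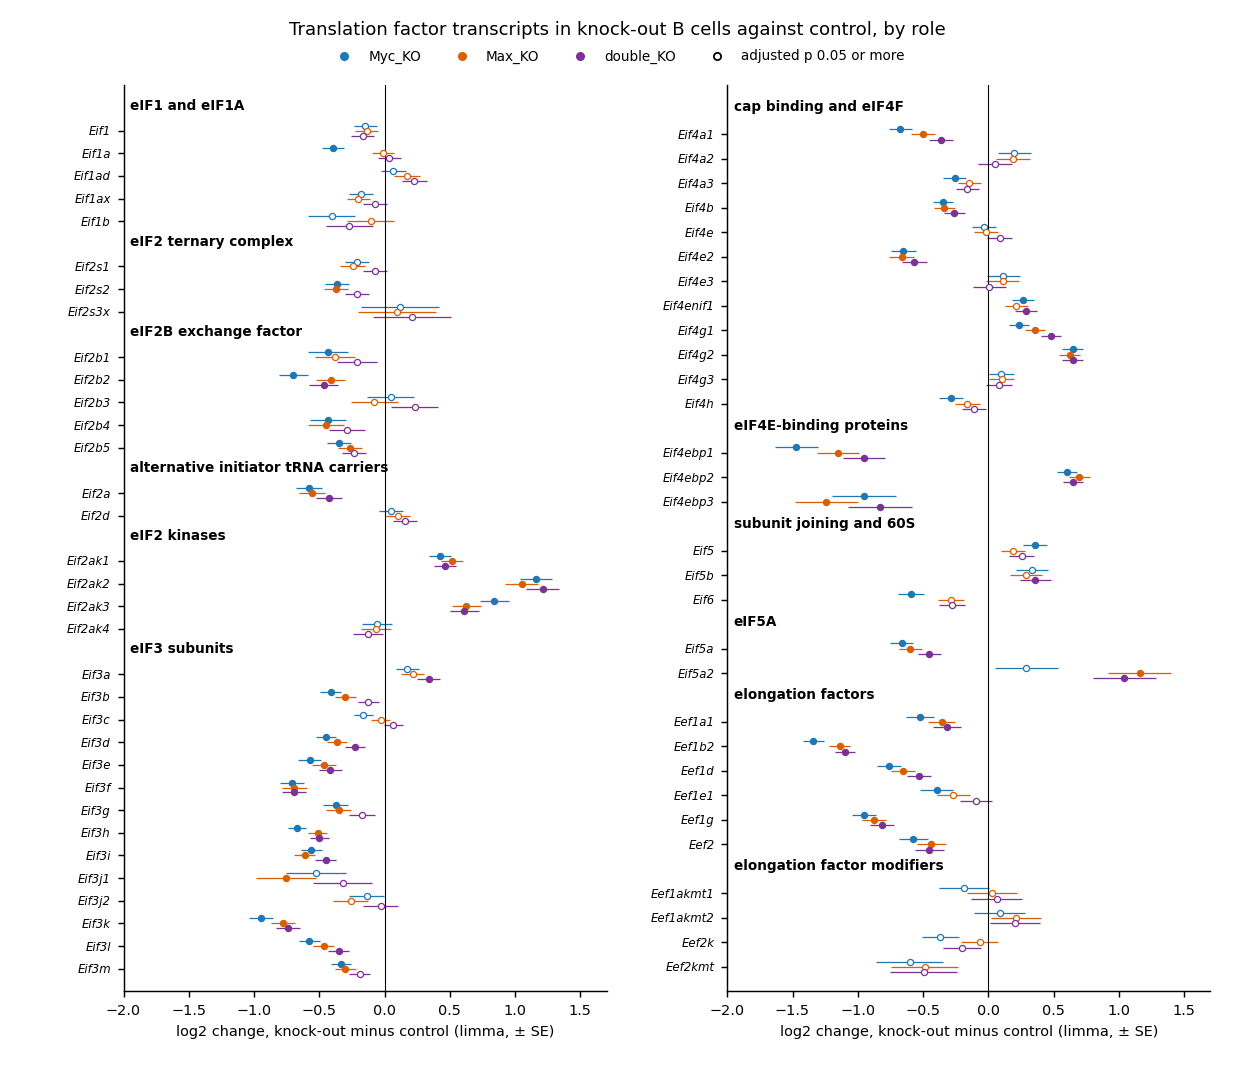
Log2 change of each tested translation factor transcript in Myc_KO (blue), Max_KO (orange) and double_KO (purple) against the control, by role, with bars of ± SE from limma. Filled points passed the test, and Eif2s3y, which 4 libraries lacked, is not drawn. Elongation factors and most eIF3 subunits lie left of 0 (Eef1a1 and Eef2 turn under quantile normalization), and 3 eIF2 kinases, Eif4ebp2 and Eif4g2 lie right of it.

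The 65 measured members together took 3.15% and 3.05% of all estimated reads in the controls, against 2.52% to 2.83% in the 6 knock-out libraries. The 6 elongation factors alone made up 1.97% and 1.91% for the controls and between 1.4% and 1.61% for the knock-outs. The 14 eIF3 subunits went from 0.41% and 0.394% to between 0.326% and 0.373%, while the 12 cap-binding and eIF4F genes went from 0.401% and 0.385% to between 0.439% and 0.469%. These shares are of each library's own reads and not of the effective library size. Total reads were 1.09 and 1.04 times that size in the controls and 0.956 to 0.995 times in the knock-outs. Scaled to the total, the median log2 changes of all tested genes were 0.15, 0.12 and 0.14, so a share can rise without a rise in RPM. On the RPM scale the cap-binding and eIF4F genes had median log2 changes of 0.033, 0.044 and 0.029.

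Because Myc and Max bind the sequence CACGTG, the canonical E-box, promoters of the members were searched for it. RefSeq (GRCm38.p6) gave a promoter for 50 of the 64 tested members, and CACGTG, which reads the same on both strands, was present in the 250 bases before a start in 11 of them (22%), against 10.2% of 9331 tested genes with a promoter and 6.86% of all 27025 genes with one. Of these 11 members, Eef2, Eif3f, Eif3k, Eif4a1 and Eif5a fell in all 3 comparisons, Eif4h fell in Myc_KO, Eif4g1 rose in all 3, Eif5a2 rose in Max_KO and double_KO, and Eif4e, Eif1b and Eef2k passed in none. Of the 11 with the motif, 6, 5 and 5 fell and 1, 2 and 2 rose in Myc_KO, Max_KO and double_KO, and of the 39 without it 17, 15 and 8 fell and 6, 4 and 7 rose. A match describes the letters in this window and shows no binding. The stretches below, printed 5′ to 3′ in the direction of the gene with the E-box in capitals, show the motif in members that fell, in Eif4g1 and Eif5a2, which rose, and in Eif4e, which did neither.
Eef2 (chr10:81176561-81176620, plus strand): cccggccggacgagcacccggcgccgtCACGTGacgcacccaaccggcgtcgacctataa
Eif3f (chr7:108934320-108934379, plus strand): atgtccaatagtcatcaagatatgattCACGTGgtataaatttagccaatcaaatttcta
Eif3k (chr7:28981900-28981959, minus strand): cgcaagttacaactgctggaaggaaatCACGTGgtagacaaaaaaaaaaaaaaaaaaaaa
Eif4a1 (chr11:69672580-69672639, minus strand): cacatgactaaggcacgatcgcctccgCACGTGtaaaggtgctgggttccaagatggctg
Eif5a (chr11:69921428-69921487, minus strand): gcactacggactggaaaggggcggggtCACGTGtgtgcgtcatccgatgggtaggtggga
Eif4g1 (chr16:20672646-20672705, plus strand): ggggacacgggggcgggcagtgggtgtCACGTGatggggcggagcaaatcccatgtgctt
Eif5a2 (chr3:28781108-28781192, plus strand): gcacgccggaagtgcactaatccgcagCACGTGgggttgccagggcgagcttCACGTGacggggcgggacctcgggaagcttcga
Eif4e (chr3:138527028-138527057, plus strand): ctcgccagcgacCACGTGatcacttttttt
Eif4e (chr3:138527192-138527221, plus strand): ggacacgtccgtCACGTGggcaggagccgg
The Eif5a2 stretch, which holds the motif at 142 and 117 bases before the start, overlaps an exon of 1700112D23Rik. Both Eif4e stretches overlap annotated exons of Eif4e itself. These and the printed Eif4g1 and Eif5a stretches lie within the annotated span of their gene, before a RefSeq start. In Eef2 the motif lies 43 bases before the start, in Eif3k 44, in Eif4g1 54, in Eif3f 68 and in Eif4a1 189.

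Among the factors that scan for the start codon, Eif1a fell in Myc_KO and no other passed in any group. Eif1a, which encodes an eIF1A protein that keeps the small subunit open during scanning, was at 109 and 101 RPM in the controls, 77.4 and 82.7 in Myc_KO, 108 and 101 in Max_KO, and 111 and 105 in double_KO. Both Myc_KO libraries lay below the 6 others. Its log2 changes were -0.40, -0.012 and 0.037 (SE 0.087, adjusted p = 0.00703, 0.925 and 0.766). The call in Myc_KO did not hold without control 1 (adjusted p = 0.062) or with groups from the descriptions (adjusted p = 0.433). The X-linked gene for the same factor, Eif1ax, was higher than Eif1a in no library when set per length: the ratio of Eif1ax to Eif1a per kb was 0.755 and 0.747 for the controls and lay between 0.639 and 0.894 in knock-out libraries. Eif1, outside the naming rule, the partner that guards start codon selection, was at 481 and 422 RPM in the controls, 408 and 405 in Myc_KO, 416 and 403 in Max_KO, and 419.8 and 384 in double_KO and did not pass. Its relative Eif1b had log2 changes of -0.41, -0.11 and -0.27 (SE 0.18, adjusted p = 0.0982, 0.67 and 0.268), and Eif1ad, a protein with an eIF1A-like domain, of 0.067, 0.17 and 0.23 (SE 0.10, adjusted p = 0.601, 0.193 and 0.0948).

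eIF2 consists of an alpha, a beta and a gamma subunit, and of its 4 genes 1 passed, that for the beta subunit. Eif2s2, the beta subunit, was at 216 and 203 RPM in the controls, 172 and 155 in Myc_KO, 161 and 162 in Max_KO, and 171 and 193 in double_KO. This gave log2 changes of -0.36, -0.37 and -0.21 (SE 0.092, adjusted p = 0.0135, 0.0135 and 0.107). Both calls fell away without control 1 (adjusted p = 0.0932 in Myc_KO and 0.0943 in Max_KO), and single calls without Myc_KO 2 (0.0754) or Max_KO 2 (0.051). Eif2s1, the alpha subunit that carries the regulatory phosphorylation site, was at 148 and 135 RPM in the controls, 131 and 114 in Myc_KO, 121 and 118 in Max_KO, and 132 and 137 in double_KO. The fitted log2 changes were -0.21, -0.24 and -0.073 (SE 0.094, adjusted p = 0.0996, 0.0711 and 0.57).

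The gamma subunit, which binds GTP and the initiator tRNA, is encoded by Eif2s3x (chromosome X, 94188707 to 94212862) and by Eif2s3y (chromosome Y, 1010543 to 1028847), and the libraries divided into those with and without the Y-linked copy. Eif2s3y was at 99.8 RPM in control 1, 105 in Myc_KO 2, 102 in Max_KO 2 and 104 in double_KO 2, and had 1, 0, 0 and 6 estimated reads in control 2, Myc_KO 1, Max_KO 1 and double_KO 1. Each group thus held 1 library of each kind, and the latter 4 carried Xist at 863 to 985 RPM. Eif2s3x was at 216 and 309 RPM in the controls, 352 and 222 in Myc_KO, 345 and 220.4 in Max_KO, and 358 and 249.6 in double_KO. It was lower in every library that expressed Eif2s3y, at 216 to 249.6 RPM against 309 to 358. The sum of both copies was 315 and 309 RPM in the controls, 352 and 327 in Myc_KO, 345 and 322 in Max_KO, and 358 and 354 in double_KO. Per kb, Eif2s3x exceeded Eif2s3y 2.36, 2.32, 2.36 and 2.62 times in the 4 libraries that had both. Neither copy passed between groups. Log2 changes of Eif2s3x were 0.12, 0.10 and 0.21 (SE 0.30, adjusted p = 0.776, 0.823 and 0.609). With groups from the descriptions both Myc_KO libraries lacked Eif2s3y and both double_KO libraries had it. How RSEM divided reads between the 2 copies is an estimate, and the similarity of their sequences was not examined here.

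**Figure D2:**
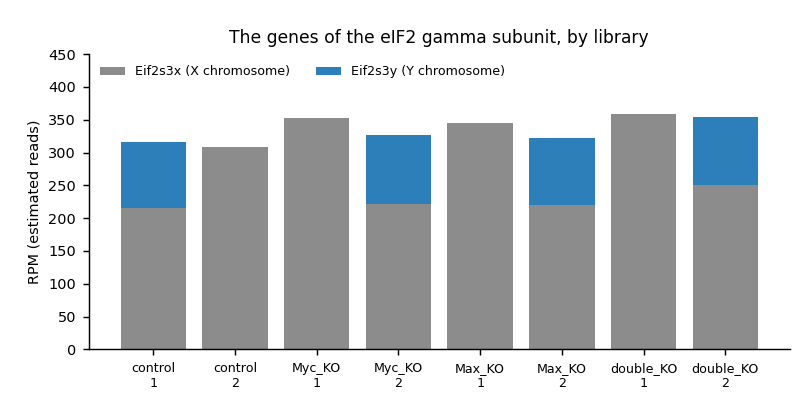
RPM of Eif2s3x and Eif2s3y in each of the 8 libraries, stacked, so that the bar height is the transcript level of both genes for the eIF2 gamma subunit. The summed height runs from 309 to 358 RPM, while Eif2s3y is present in 1 library of each group.

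Of the 5 subunits of eIF2B, the exchange factor that recharges eIF2 with GTP, Myc_KO had 4 lower, Max_KO 3 and double_KO 1. Among all tested genes 21.4%, 17.4% and 16.8% were lower, and the 1 of 5 in double_KO is near that share. Eif2b2, the beta subunit, was at 80.3 and 76 RPM in the controls, 43.5 and 53.2 in Myc_KO, 58.9 and 58.3 in Max_KO, and 55.8 and 57.3 in double_KO. All 6 knock-out libraries were below both controls, with log2 changes of -0.70, -0.41 and -0.47 (SE 0.11, adjusted p = 0.00147, 0.0187 and 0.0118). Eif2b4 had log2 changes of -0.43, -0.45 and -0.29 (SE 0.14, adjusted p = 0.0327, 0.0307 and 0.129). Eif2b5, which carries the catalytic activity, had -0.35, -0.26 and -0.24 (SE 0.09, adjusted p = 0.0146, 0.0485 and 0.07). Eif2b1 was the fourth to fall in Myc_KO and was named after its values were seen, with a log2 change of -0.44 (SE 0.15, adjusted p = 0.0463), and this call was lost without each single library other than Myc_KO 2 (adjusted p = 0.0555 to 0.245). Without control 1, 1 subunit fell in Myc_KO and none passed in the other groups, and Eif2b2 was then at an adjusted p of 0.116 in Max_KO and 0.0846 in double_KO. Its call in Max_KO was also lost without control 2 (0.065), Max_KO 1 (0.054) or Max_KO 2 (0.0739), and that in double_KO without double_KO 1 (0.056). Eif2b4 in Myc_KO was at 0.218 without control 1, 0.066 without Myc_KO 1 and 0.122 without Myc_KO 2, and in Max_KO at 0.206 without control 1 and 0.175 without Max_KO 2. Eif2b5 was at 0.116 in Myc_KO without control 1 and 0.0527 without Myc_KO 1, and in Max_KO its call was lost without each library other than control 2 (0.0609 to 0.286).

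A pair of proteins can bring tRNA to the ribosome without eIF2, and 1 of them fell. Eif2a, a factor distinct from the eIF2 alpha subunit, was at 107 and 101 RPM in the controls, 67.3 and 71.1 in Myc_KO, 67.8 and 73.4 in Max_KO, and 71.7 and 83 in double_KO. Relative to the control, log2 changes were -0.58, -0.55 and -0.42 (SE 0.10, adjusted p = 0.00227, 0.00365 and 0.0117), the last of which did not hold without control 1 (adjusted p = 0.086) or double_KO 1 (adjusted p = 0.0748). Eif2d was at 55.6 and 52.2 RPM in the controls, 54.9 and 56.5 in Myc_KO, 59.6 and 56.4 in Max_KO, and 62.3 and 58.1 in double_KO. This gave log2 changes of 0.049, 0.10 and 0.16 (SE 0.092, adjusted p = 0.695, 0.393 and 0.202).

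Of the 4 kinases that phosphorylate eIF2, Eif2ak1, Eif2ak2 and Eif2ak3 rose in all 3 comparisons and Eif2ak4 in none. Among all tested genes 17.2% rose in all 3. Eif2ak2 (chromosome 17, 78852564 to 78882573) encodes PKR, the kinase activated by double-stranded RNA, and was at 45 and 45.5 RPM in the controls, 92.4 and 110.1 in Myc_KO, 83.9 and 104 in Max_KO, and 103 and 107 in double_KO. Every knock-out library held at least 83.9 RPM against at most 45.5 in the controls. Its levels were higher by 2.23-fold, 2.07-fold and 2.32-fold in Myc_KO, Max_KO and double_KO, with log2 changes of 1.16, 1.05 and 1.21 (SE 0.13, adjusted p = 0.000258, 0.000606 and 0.000344). These were the highest changes among members that passed in Myc_KO and double_KO.

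Eif2ak3 (chromosome 6, 70844515 to 70905245) encodes PERK, which senses unfolded protein in the endoplasmic reticulum, and was at 48.1 and 51.1 RPM in the controls, 82.6 and 95.3 in Myc_KO, 75.5 and 77.5 in Max_KO, and 69.9 and 82 in double_KO. The groups did not overlap, and log2 changes were 0.84, 0.63 and 0.61 (SE 0.11, adjusted p = 0.000653, 0.00332 and 0.0038). Eif2ak1, the haem-regulated kinase HRI, was at 69 and 72.3 RPM in the controls, 92.7 and 96.9 in Myc_KO, 97 and 105 in Max_KO, and 96.6 and 98 in double_KO. It rose 1.34-fold, 1.43-fold and 1.38-fold, with log2 changes of 0.42, 0.51 and 0.46 (SE 0.083, adjusted p = 0.004, 0.00217 and 0.0035). Eif2ak4, the kinase GCN2 that senses uncharged tRNA, was at 37 and 41.6 RPM in the controls, 35.4 and 40.1 in Myc_KO, 38.4 and 36.5 in Max_KO, and 36.9 and 34.9 in double_KO. The log2 changes were -0.06, -0.068 and -0.13 (SE 0.11, adjusted p = 0.701, 0.669 and 0.403). The 9 calls for the 3 kinases that rose were kept under all 23 alternatives.

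**Figure D3:**
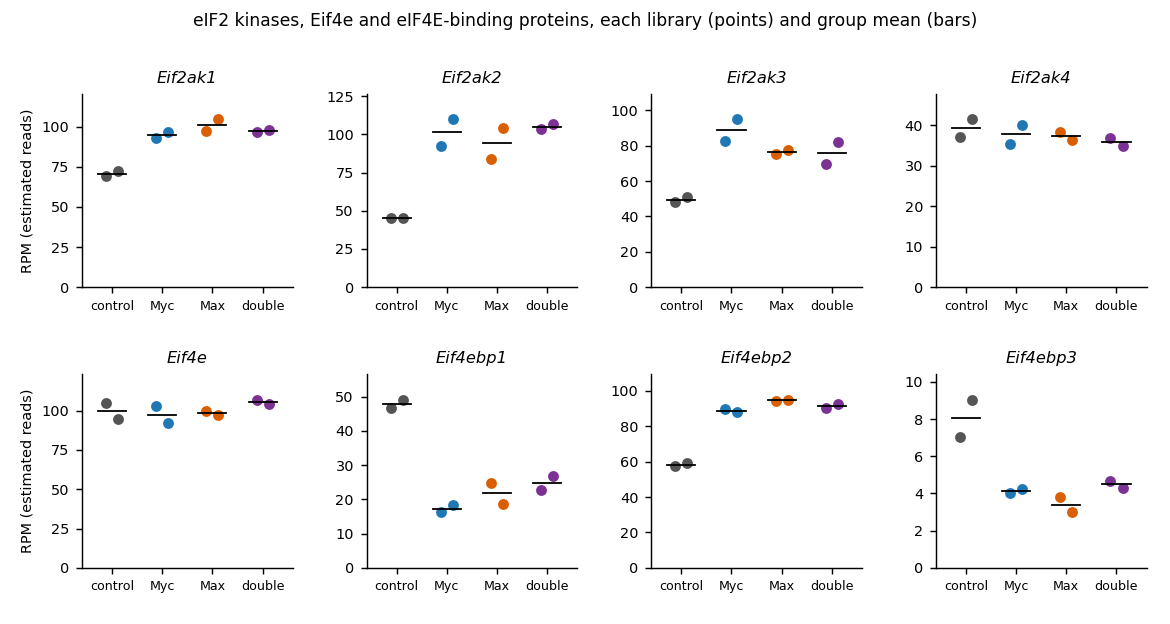
RPM of the eIF2 kinases, the eIF4E-binding proteins and Eif4e in each library (points) with the mean of each group of 2 (bars), by genotype. Eif2ak1, Eif2ak2, Eif2ak3 and Eif4ebp2 have all knock-out points above both controls, Eif4ebp1 and Eif4ebp3 have them below, and Eif2ak4 and Eif4e overlap in at least 2 comparisons.

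Genes around eIF2 phosphorylation outside the members lay mostly below the control. Of 9 genes for eIF2 phosphatase subunits and the ATF4 response, 1 rose in each group, while Myc_KO had 4 lower, Max_KO 3 and double_KO 2. Of all tested genes, 24%, 22.3% and 21.8% rose and 21.4%, 17.4% and 16.8% fell. Log2 changes were below 0 for 8, 8 and 6 of the 9. Their medians were -0.665, -0.517 and -0.533, against 0.0018, 0.018 and 0.023 for all tested genes. Ppp1r15b, a subunit that directs the phosphatase to eIF2, was at 145 and 137 RPM in the controls, 205 and 190 in Myc_KO, 185 and 198 in Max_KO, and 196 and 205 in double_KO. On the log2 scale the differences were 0.49, 0.45 and 0.51 (adjusted p = 0.00186, 0.00362 and 0.00204). Ddit4, an inhibitor of mTOR signalling that stress induces, was at 136 and 180 RPM in the controls, 25.1 and 27.2 in Myc_KO, 66.7 and 32.8 in Max_KO, and 37 and 31.9 in double_KO. It fell by 2.58 in Myc_KO, 1.74 in Max_KO and 2.19 in double_KO on the log2 scale (adjusted p = 0.000293, 0.00252 and 0.000926). Sesn2, a leucine sensor that restrains mTOR, was at 56 and 66.5 RPM in the controls, 33.4 and 34.4 in Myc_KO, 36.7 and 40 in Max_KO, and 35.6 and 46.4 in double_KO, and its log2 changes were -0.85, -0.67 and -0.59 (adjusted p = 0.00228, 0.00827 and 0.0149), of which those in Max_KO and double_KO were lost without control 2 (adjusted p = 0.0695 and 0.109) and the latter without double_KO 1 (0.0854). Atf4 itself was at 251 and 219 RPM in the controls, 193 and 245 in Myc_KO, 219 and 234 in Max_KO, and 252 and 254 in double_KO and did not pass, nor did Ddit3 or Asns; these 3 were named after their values were seen.

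eIF3 is the largest initiation factor and holds the small subunit, eIF4F and the other factors together, and most of its subunit transcripts fell. Of the 14 subunit genes, Myc_KO had 10 lower, Max_KO 11 and double_KO 7, where 21.4%, 17.4% and 16.8% of all tested genes were lower. The 1 that rose was Eif3a in double_KO, where 21.8% of all tested genes rose. Median log2 changes of the 14 were -0.49, -0.41 and -0.27. Eif3k (chromosome 7, 28971372 to 28981864), a small peripheral subunit, was at 297 and 268 RPM in the controls, 139 and 154 in Myc_KO, 157 and 173 in Max_KO, and 170.2 and 168 in double_KO. Its log2 changes, the lowest of the family in Myc_KO, Max_KO and double_KO, were -0.94, -0.78 and -0.74 (SE 0.092, adjusted p = 0.000156, 0.000566 and 0.00071). Eif3h was at 489.5 and 461 RPM in the controls, 302 and 295 in Myc_KO, 325 and 341 in Max_KO, and 341 and 332 in double_KO. This gave log2 changes of -0.67, -0.51 and -0.50 (SE 0.073, adjusted p = 0.000252, 0.00127 and 0.00141). Eif3i, a propeller-shaped subunit that joins Eif3b and Eif3g, was at 342 and 315 RPM in the controls, 218 and 227 in Myc_KO, 211 and 219 in Max_KO, and 249 and 231 in double_KO. The 3 log2 changes were -0.56, -0.61 and -0.45 (SE 0.08, adjusted p = 0.000889, 0.000867 and 0.0033). In these 3 genes every knock-out library was below both controls. Their 9 calls were kept under all 23 alternatives.

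Values of the scaffold subunits Eif3a and Eif3c, which were chosen after they were seen, were closer to or above the control. Eif3b, also chosen after its values were seen, fell in Myc_KO and Max_KO. Eif3a, the largest subunit and the base of the core, was at 462 and 403 RPM in the controls, 498 and 476 in Myc_KO, 492 and 510.5 in Max_KO, and 527 and 563 in double_KO. All 6 knock-out libraries were above both controls, and its log2 changes were 0.17, 0.22 and 0.34 (SE 0.088, adjusted p = 0.138, 0.0845 and 0.0175). Its call was lost without control 2 (adjusted p = 0.115), without double_KO 2 (adjusted p = 0.0995) and with groups from the descriptions (adjusted p = 0.0917). Eif3c, the other core scaffold, was at 392 and 372 RPM in the controls, 348 and 335 in Myc_KO, 369 and 379 in Max_KO, and 392 and 407 in double_KO, and its changes were -0.16, -0.03 and 0.066 (SE 0.072, adjusted p = 0.0993, 0.769 and 0.499). Eif3b, another large subunit, had -0.41, -0.30 and -0.12 (SE 0.081, adjusted p = 0.00403, 0.0192 and 0.252), and its call in Max_KO was lost without control 1 (adjusted p = 0.132), Max_KO 1 (0.0546) or Max_KO 2 (0.0794). With groups from the descriptions both of its calls were lost (0.0912 in Myc_KO and 0.104 in Max_KO). The difference in change between the subunits was not tested.

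The remaining eIF3 genes complete the family and lie outside the rule by which members were named. Eif3f changed by -0.71, -0.69 and -0.69 (SE 0.094, adjusted p = 0.000648, 0.00105 and 0.00102), Eif3e, Eif3l and Eif3d fell in all 3 groups, and Eif3g and Eif3m in Myc_KO and Max_KO. In double_KO the calls of Eif3e and Eif3l were lost without control 1 (adjusted p = 0.0692 and 0.0826) or double_KO 1 (0.0587 and 0.0655). Those of Eif3g and Eif3m were lost without control 1 in Myc_KO (0.108 and 0.0662) and Max_KO (0.152 and 0.104). Eif3d fell least of these in double_KO, from 272 ± 13.9 to 232 ± 9.12 RPM (SD, n = 2), and its adjusted p without each of the 8 libraries in turn was 0.0519 to 0.221. Of the pair of genes for the loosely bound subunit eIF3j, Eif3j2 was at 71.3 to 95.6 RPM in the 8 libraries and did not pass, and Eif3j1 was at 4.15 to 8.55 RPM and fell in Max_KO with a log2 change of -0.76 (SE 0.23, adjusted p = 0.0295), which was lost without control 1 (0.168), control 2 (0.0725) or Max_KO 1 (0.136). Without control 1, 8, 6 and 4 of the 14 subunits fell in Myc_KO, Max_KO and double_KO, and with the 6 libraries without conflicting labels 10, 11 and 4 fell and none rose.

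**Figure D4:**
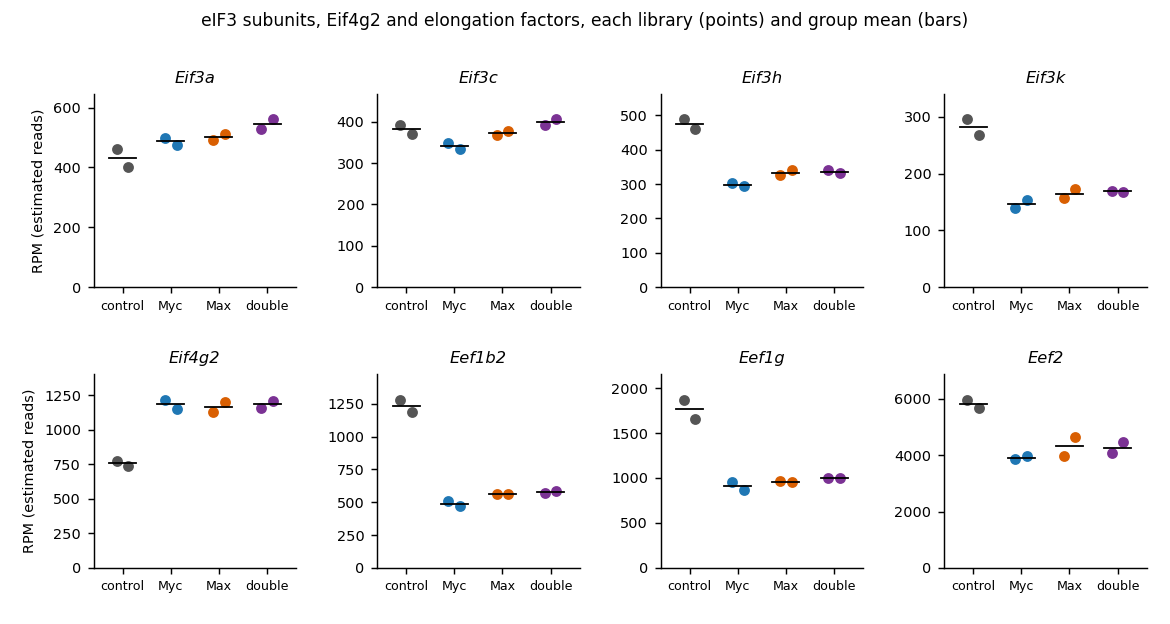
RPM of 4 eIF3 subunits, Eif4g2 and 3 elongation factors in each library (points) with the mean of each group of 2 (bars), by genotype. Eif3h, Eif3k, Eef1b2, Eef1g and Eef2 have all knock-out points below both controls (Eef2 turns under quantile normalization), whereas for Eif3a and Eif4g2 they lie above them.

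The eIF4F genes split, with the helicase Eif4a1 lower, the scaffolds Eif4g1 and Eif4g2 higher and no call for the cap-binding Eif4e. Of the 12 genes of this role, 3, 2 and 3 rose and 5, 3 and 3 fell in Myc_KO, Max_KO and double_KO. Among all tested genes 24%, 22.3% and 21.8% rose and 21.4%, 17.4% and 16.8% fell. The counts higher, and those lower in Max_KO and double_KO, lie near these shares. Without control 1 the counts were 1, 2 and 3 higher and 2, 2 and 1 lower, and without control 2 they were 1, 1 and 2 higher and 3, 3 and 2 lower. Eif4e (chromosome 3, 138526179 to 138559696), often described as a Myc target, was at 105 and 94.5 RPM in the controls, 103 and 91.9 in Myc_KO, 99.9 and 97.1 in Max_KO, and 107 and 104 in double_KO. The groups overlapped in all 3 comparisons, and log2 changes were -0.033, -0.015 and 0.086 (SE 0.092, adjusted p = 0.796, 0.909 and 0.494). Eif4e2, a relative that binds the cap and represses translation, was at 121 and 114 RPM in the controls, 72.8 and 76.6 in Myc_KO, 76.2 and 72.1 in Max_KO, and 74.2 and 84.9 in double_KO. It fell 1.57-fold, 1.58-fold and 1.48-fold in Myc_KO, Max_KO and double_KO, with log2 changes of -0.65, -0.66 and -0.57 (SE 0.10, adjusted p = 0.00103, 0.00138 and 0.00271). Per kb, the ratio of Eif4e to Eif4e2 within a library was 1.08 and 1.04 for the controls and between 1.5 and 1.8 for the knock-outs. Eif4e3 was at 20.3 to 24.3 RPM throughout and did not pass.

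Eif4a1 (chromosome 11, 69666936 to 69672423), the RNA helicase of eIF4F, was at 832 and 735 RPM in the controls, 479 and 501 in Myc_KO, 556 and 549 in Max_KO, and 577 and 641 in double_KO. These levels gave log2 changes of -0.67, -0.50 and -0.36 (SE 0.09, adjusted p = 0.000686, 0.00354 and 0.0146). The call in double_KO was lost without control 1 (adjusted p = 0.107) or double_KO 1 (adjusted p = 0.0959), and under quantile normalization it was -0.20 (adjusted p = 0.0889). Eif4a2, its paralogue, was at 448 and 395 RPM in the controls, 523 and 446 in Myc_KO, 514 and 448 in Max_KO, and 479 and 397 in double_KO and did not pass, with log2 changes of 0.20, 0.19 and 0.051 (SE 0.13, adjusted p = 0.238, 0.273 and 0.779). Per kb, Eif4a1 exceeded Eif4a2 2.29 times in both controls and between 1.13 and 1.99 times in the knock-out libraries. The helicase cofactor Eif4b, named after its values were seen, changed by -0.35, -0.34 and -0.26 (SE 0.08, adjusted p = 0.00854, 0.0116 and 0.0327). Without control 1 its adjusted p was 0.067, 0.0846 and 0.177, and that in double_KO was also lost without control 2 (0.0642), double_KO 1 (0.133) or double_KO 2 (0.0927). The cofactor Eif4h and the exon-junction helicase Eif4a3, also outside the naming rule, fell in Myc_KO, but without control 1 their adjusted p was 0.163 and 0.192 and without Myc_KO 1 it was 0.166 and 0.158, and without control 2 it was 0.0795 and 0.0869.

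Eif4g2 (chromosome 7, 111067750 to 111083030) encodes DAP5, a scaffold that lacks the eIF4E-binding site and serves initiation without eIF4E, and was at 776 and 735 RPM in the controls, 1218 and 1150 in Myc_KO, 1130 and 1200 in Max_KO, and 1158 and 1210 in double_KO. It rose 1.57-fold, 1.54-fold and 1.57-fold, with log2 changes of 0.65, 0.62 and 0.65 (SE 0.08, adjusted p = 0.00047, 0.000793 and 0.000697), and all 3 calls were kept under all 23 alternatives, with 1.03 for Eif4g2 in Myc_KO under quantile normalization. Eif4g1, the main scaffold of eIF4F, was at 519 and 474 RPM in the controls, 587 and 581 in Myc_KO, 653 and 616 in Max_KO, and 691 and 694 in double_KO. All knock-out libraries were above both controls, with log2 changes of 0.24, 0.35 and 0.48 (SE 0.077, adjusted p = 0.0365, 0.00803 and 0.00214). In Myc_KO its call was lost without each of control 1 (adjusted p = 0.0509), control 2 (0.192), Myc_KO 1 (0.105), Myc_KO 2 (0.0906), double_KO 1 (0.0587) and double_KO 2 (0.0588), and in Max_KO without control 2 (0.0601). Eif4g3 was at 171 to 207 RPM and did not pass. Eif4enif1, which carries eIF4E into the nucleus and was named after its values were seen, rose in Myc_KO and double_KO, with log2 changes of 0.27, 0.21 and 0.29 (SE 0.086, adjusted p = 0.0358, 0.0811 and 0.0292), but neither call held without control 2 (adjusted p = 0.201 and 0.172) or without either library of the knock-out group concerned (0.0971 and 0.102 in Myc_KO, 0.0707 and 0.129 in double_KO).

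The eIF4E-binding proteins, which sequester eIF4E, changed in opposite directions. Eif4ebp1 (chromosome 8, 27260329 to 27276674) had 46.8 and 49.2 RPM in the controls, 16.3 and 18.4 in Myc_KO, 24.8 and 18.8 in Max_KO, and 22.9 and 26.8 in double_KO. The highest knock-out library held 26.8 RPM and the lower control 46.8. It was 2.77-fold, 2.22-fold and 1.94-fold lower in Myc_KO, Max_KO and double_KO, with log2 changes of -1.47, -1.15 and -0.95 (SE 0.16, adjusted p = 0.00027, 0.00124 and 0.0028). In Myc_KO this was the lowest change of any member. Eif4ebp2 (chromosome 10, 61428491 to 61452661) measured 57.5 and 59.2 RPM in the controls, 89.6 and 87.8 in Myc_KO, 94.3 and 95.1 in Max_KO, and 90.5 and 92.5 in double_KO. It rose 1.52-fold, 1.62-fold and 1.57-fold, with log2 changes of 0.60, 0.70 and 0.65 (SE 0.077, adjusted p = 0.000555, 0.000459 and 0.000597). The 6 calls for Eif4ebp1 and Eif4ebp2 were kept under all 23 alternatives.

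Within each library, Eif4ebp1 exceeded Eif4ebp2 per kb 2.14 and 2.19 times in the controls, whereas the ratio was 0.478 and 0.552 in Myc_KO, 0.692 and 0.52 in Max_KO and 0.665 and 0.764 in double_KO. The ratio was thus lower in every knock-out library than in both controls. A ratio within a library does not depend on its scaling, but its position around 1 rests on the exon lengths used, 2.196 kb for Eif4ebp1 and 5.784 kb for Eif4ebp2: in RPM, Eif4ebp1 was below Eif4ebp2 in the controls too. Summed, the 3 binding proteins took 0.0102% and 0.0113% of reads in the controls, against 0.0113% to 0.0126% in the knock-outs. These are shares of total reads, a scale on which the median of all genes is higher in the knock-outs. Eif4ebp3, the least abundant, was at 7.03 and 9.05 RPM in the controls, 4 and 4.21 in Myc_KO, 3.79 and 2.98 in Max_KO, and 4.67 and 4.32 in double_KO. The log2 changes were -0.95, -1.24 and -0.83 (SE 0.24, adjusted p = 0.0139, 0.00522 and 0.0288). In the annotation it overlaps AC115631.1 on the same strand, so the reads of the 2 cannot be told apart where they overlap. Without control 2 it was at an adjusted p of 0.102 in Myc_KO and 0.173 in double_KO, and without Myc_KO 1, control 1, double_KO 1 and double_KO 2 single calls were lost as well (0.0549, 0.0598, 0.0791 and 0.112).

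**Figure D5:**
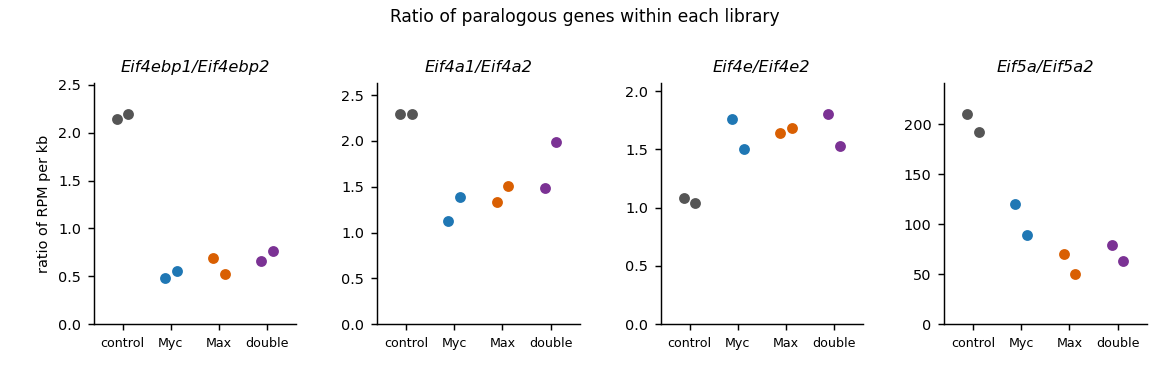
Ratio of 4 pairs of related genes within each library, from RPM per kb of exon, by genotype. Eif4ebp1 over Eif4ebp2 is above 2 in the controls and below 1 in all 6 knock-out libraries with the exon lengths used, Eif4a1 over Eif4a2 and Eif5a over Eif5a2 are lower in the knock-outs, and Eif4e over Eif4e2 is higher.

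Factors that act when the large subunit joins gave few calls. Eif6, which keeps the large subunit apart until it is ready, was at 169 and 156 RPM in the controls, 101 and 115 in Myc_KO, 138 and 129 in Max_KO, and 126 and 142 in double_KO. It fell in Myc_KO, and its log2 changes were -0.59, -0.28 and -0.28 (SE 0.10, adjusted p = 0.00205, 0.0539 and 0.0591). Eif5, which triggers GTP hydrolysis by eIF2, was at 335 and 299 RPM in the controls, 396 and 415 in Myc_KO, 348 and 374 in Max_KO, and 355 and 401 in double_KO. It rose in Myc_KO, with log2 changes of 0.36, 0.19 and 0.25 (SE 0.094, adjusted p = 0.0154, 0.142 and 0.0633), but not without control 2 (adjusted p = 0.105) or Myc_KO 2 (adjusted p = 0.0682). Eif5b, the GTPase that joins the subunits, had 0.33, 0.29 and 0.36 (SE 0.12, adjusted p = 0.0553, 0.0971 and 0.0468), and its call in double_KO was lost without each of control 1, control 2, double_KO 1, double_KO 2, Max_KO 1 and Max_KO 2 (adjusted p = 0.0724, 0.243, 0.203, 0.0697, 0.0514 and 0.0512).

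The genes for eIF5A, which carries the amino acid hypusine and helps ribosomes through difficult peptide bonds, moved apart. Eif5a (chromosome 11, 69916714 to 69921958) had 1105 and 973 RPM in the controls, 636 and 674 in Myc_KO, 684 and 687 in Max_KO, and 729 and 788 in double_KO. It fell 1.58-fold, 1.51-fold and 1.37-fold, with log2 changes of -0.66, -0.60 and -0.45 (SE 0.089, adjusted p = 0.00069, 0.00155 and 0.0053). Quantile normalization gave -0.40, -0.37 and -0.18 for Eif5a (adjusted p = 0.00342, 0.00597 and 0.0972). Eif5a2 (chromosome 3, 28781276 to 28798846) measured 11.1 and 10.7 RPM in the controls, 11.2 and 16 in Myc_KO, 20.6 and 29 in Max_KO, and 19.4 and 26.3 in double_KO. It was 2.23-fold higher in Max_KO and 2.06-fold higher in double_KO, and log2 changes were 0.29, 1.16 and 1.04 (SE 0.24, adjusted p = 0.358, 0.00671 and 0.0106). Both Myc_KO libraries lay below all Max_KO and double_KO libraries. The call in double_KO was lost without control 1 (adjusted p = 0.0586), control 2 (0.0623) or double_KO 2 (0.069). Per kb, Eif5a still exceeded Eif5a2 at least 50.1 times in every library, against 210 and 192 times in the controls. Dohh, an enzyme that completes hypusine, was at 61.1 and 54.8 RPM in the controls, 34.7 and 42.2 in Myc_KO, 42.3 and 41.4 in Max_KO, and 40 and 44.8 in double_KO. Differences in log2 were -0.60, -0.47 and -0.45 (adjusted p = 0.00574, 0.0191 and 0.0222), lost in all 3 groups without control 1 (adjusted p = 0.055, 0.132 and 0.146) and singly without control 2, Max_KO 1, Max_KO 2 or double_KO 1 (0.0551, 0.0515, 0.0778 and 0.116).

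The elongation factors fell in most comparisons: of 6 genes, Myc_KO had 6 lower, Max_KO 5 and double_KO 5, the exception being Eef1e1 in the latter groups. By comparison, 21.4%, 17.4% and 16.8% of all tested genes were lower. Eef1a1 and Eef2 had changes above 0 under quantile normalization. Without control 1, 5, 3 and 3 of the 6 fell, and 3 fell in Max_KO without Max_KO 1 and in double_KO without double_KO 1. Median log2 changes of the 6 were -0.67, -0.54 and -0.49. Eef1b2 (chromosome 1, 63176825 to 63180486), a nucleotide exchange subunit that recharges eEF1A, was at 1282 and 1186 RPM in the controls, 506 and 469 in Myc_KO, 559 and 562 in Max_KO, and 567 and 582 in double_KO. The highest knock-out library held 582 RPM and the lower control 1186. It fell 2.53-fold, 2.2-fold and 2.15-fold, with log2 changes of -1.34, -1.14 and -1.10 (SE 0.079, adjusted p = 4.64e-05, 0.00017 and 0.000164). Eef1g, the structural subunit of the same complex, was at 1873 and 1659 RPM in the controls, 959 and 863 in Myc_KO, 962 and 959 in Max_KO, and 999 and 1004 in double_KO. The 3 log2 changes were -0.95, -0.88 and -0.82 (SE 0.091, adjusted p = 0.000141, 0.000344 and 0.000438). Under quantile normalization those of Eef1g were -0.28, -0.34 and -0.22 (adjusted p = 0.0268, 0.0144 and 0.071). Eef1d, its second exchange subunit, was at 298 and 249.8 RPM in the controls, 159.8 and 162 in Myc_KO, 174 and 173 in Max_KO, and 189.9 and 187 in double_KO. The 3 log2 changes were -0.76, -0.65 and -0.53 (SE 0.092, adjusted p = 0.000425, 0.00124 and 0.00302).

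The substrate of this complex and the translocase fell too, and whether their changes differed from those of the exchange subunits was not tested. Eef1a1, which brings aminoacyl-tRNA to the ribosome, was the most abundant member per length, at 4639 RPM per kb in the controls. It was at 11980 and 11150 RPM in the controls, 8049 and 8022 in Myc_KO, 8746 and 9283 in Max_KO, and 9106 and 9482 in double_KO. Log2 changes against the control were -0.52, -0.36 and -0.32 (SE 0.11, adjusted p = 0.00474, 0.0276 and 0.046). The calls in Max_KO and double_KO did not hold without control 1 (adjusted p = 0.117 and 0.167), control 2 (0.0504 and 0.0707), double_KO 1 (0.0643 and 0.217) or double_KO 2 (0.0618 and 0.145), and in Max_KO without Max_KO 1 (0.117) or Max_KO 2 (0.0698); in double_KO those 2 libraries gave 0.0613 and 0.0603. With the 6 libraries without conflicting labels the call in Myc_KO was lost as well (0.0572). Eef2, which moves the ribosome along by a codon, was at 5981 and 5679 RPM in the controls, 3861 and 3968 in Myc_KO, 3985 and 4658 in Max_KO, and 4074 and 4464 in double_KO. Its log2 changes were -0.57, -0.44 and -0.45 (SE 0.11, adjusted p = 0.00369, 0.015 and 0.0133), and calls were lost without control 1 in Max_KO and double_KO (0.0813 and 0.0749), without Max_KO 1 (0.0835) and without double_KO 1 (0.0974). Eef1e1, a partner of the tRNA synthetase complex named after its values were seen, had -0.40, -0.27 and -0.094 (SE 0.12, adjusted p = 0.0324, 0.124 and 0.583), and without control 1 its call in Myc_KO was lost (adjusted p = 0.222), as without Myc_KO 1 (0.066) or Myc_KO 2 (0.12).

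None of the 4 tested enzymes that modify elongation factors passed in any comparison with the control. Eef2k, the kinase that inhibits eEF2, was at 16.6 and 18.2 RPM in the controls, 14.4 and 12.7 in Myc_KO, 17.2 and 16.1 in Max_KO, and 15.6 and 14.7 in double_KO. This gave log2 changes of -0.37, -0.068 and -0.20 (SE 0.14, adjusted p = 0.0666, 0.736 and 0.296). Eef2kmt, a methyltransferase of eEF2, was at 12.9 and 13.2 RPM in the controls and between 7.57 and 11.3 in the knock-outs, with -0.60, -0.49 and -0.50 (SE 0.26, adjusted p = 0.0899, 0.167 and 0.162). Eef1akmt2, a methyltransferase of eEF1A, was at 12.6 to 18.3 RPM. Standard errors of these enzymes were 0.14 for Eef2k to 0.26 for Eef2kmt on the log2 scale. Of 9 enzymes that make hypusine or the diphthamide of eEF2, 1, 2 and 2 rose and 2, 1 and 1 fell. The shares of all tested genes were 24%, 22.3% and 21.8% higher and 21.4%, 17.4% and 16.8% lower. Among them Dph1, which starts diphthamide synthesis, was at 16.8 and 16.6 RPM in the controls, 17.2 and 17.8 in Myc_KO, 29.3 and 28.5 in Max_KO, and 30 and 25.5 in double_KO. The fitted log2 changes were 0.07, 0.79 and 0.73 (adjusted p = 0.683, 0.00218 and 0.00317). With groups from the descriptions that in double_KO was 0.35 (adjusted p = 0.305), and no longer passed.

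Messenger RNAs that begin with a terminal oligopyrimidine tract are under control of mTOR in their translation, and 10 of the members were listed as such. The list was taken as known, and the tract was not searched for here. Of the 10, 9 fell in each of the 3 groups, and the tenth, Eif3a, rose in double_KO. Among all tested genes 21.4%, 17.4% and 16.8% fell in Myc_KO, Max_KO and double_KO, and 24%, 22.3% and 21.8% rose. These shares also stand beside the counts that follow. Median log2 changes of the 10 were -0.62, -0.49 and -0.47. Cytosolic ribosomal proteins, whose messages carry the same tract, had 77 of 79 lower in each group, with medians of -1.20, -0.93 and -1.02. Their share of reads was 13.4% and 12.7% for the controls and between 6.36% and 7.58% for the knock-outs. Of 5 members often described as Myc targets, Eif4a1 and Eif5a fell in each group, Eif4g1 rose in each, and Eif4e and Eif2s1 passed in none.

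Genes that work with the members gave mixed counts. For comparison, 24%, 22.3% and 21.8% of all tested genes rose in Myc_KO, Max_KO and double_KO, and 21.4%, 17.4% and 16.8% fell. Of 22 genes for aminoacyl-tRNA synthetases and their partners, Myc_KO had 11 lower, Max_KO 7 lower and 1 higher, and double_KO 3 of each. Of 11 initiation helpers, 4, 4 and 5 rose and 3, 3 and 2 fell. Among them Dhx29, a helicase for structured leaders, was at 37 and 32.4 RPM in the controls, 55.4 and 56 in Myc_KO, 67.8 and 68.5 in Max_KO, and 70.9 and 62.5 in double_KO. Differences in log2 were 0.68, 0.97 and 0.94 (adjusted p = 0.00132, 0.000412 and 0.000455). Pdcd4, which inhibits eIF4A, was at 31 and 30.9 RPM in the controls, 57.3 and 60.4 in Myc_KO, 44.9 and 56.1 in Max_KO, and 43 and 43.8 in double_KO. Differences in log2 were 0.93, 0.70 and 0.49 (adjusted p = 0.000588, 0.0029 and 0.0139). Its call in double_KO was lost without each of control 1, control 2, double_KO 1 and double_KO 2 (adjusted p = 0.0729, 0.0699, 0.0523 and 0.0612). Bzw2, which mimics a part of eIF5, was at 84 and 75.3 RPM in the controls, 41.2 and 37.4 in Myc_KO, 36.9 and 37 in Max_KO, and 41.9 and 54.4 in double_KO and changed by -1.02, -1.10 and -0.73 (adjusted p = 0.000692, 0.000697 and 0.00416).

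Among 11 genes of the mTOR and Mnk kinases, which set the phosphorylation of eIF4E and its binding proteins, 4, 3 and 4 rose and 2, 0 and 1 fell. Beside this list and the next ones stand 24%, 22.3% and 21.8% of all tested genes higher, and 21.4%, 17.4% and 16.8% lower. Tsc1, a brake on mTOR, was at 39 and 38.2 RPM in the controls, 66.3 and 65.3 in Myc_KO, 61.6 and 62.8 in Max_KO, and 68.9 and 59.1 in double_KO. Relative to the control, log2 changes were 0.77, 0.69 and 0.72 (adjusted p = 0.000577, 0.00138 and 0.00107). Mtor changed by 0.39, 0.39 and 0.43 (adjusted p = 0.00667, 0.00769 and 0.00518), the second of which was lost without control 2 (adjusted p = 0.0542). Transcripts show neither the phosphorylation of these proteins nor the rate of translation. Of 6 poly(A)-binding proteins and partners, 0, 1 and 1 rose and 2, 1 and 1 fell. Of 5 tested termination and recycling factors, Pelo, which rescues stalled ribosomes, fell in each group by log2 changes of -0.70, -0.83 and -0.55 (adjusted p = 0.00601, 0.00359 and 0.0205), but in Myc_KO and double_KO not without control 1 (adjusted p = 0.0542 and 0.129), and in double_KO not without control 2 (0.0655) or double_KO 2 (0.103). Of 9 mitochondrial translation factors, 0, 1 and 1 rose and 3, 2 and 1 fell. The mitochondrial elongation factor Tufm fell in all 3 groups, with log2 changes of -0.82, -0.70 and -0.61 (adjusted p = 0.000872, 0.00255 and 0.00467).

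Between knock-out groups no member passed the limma test: 0 of 64 for Myc_KO against Max_KO, double_KO against Myc_KO and double_KO against Max_KO, where 4.12%, 0.456% and 0.04% of all tested genes did. At an unadjusted p under 0.05 there were 5, 15 and 0, and the share of all tested genes at that threshold is not given here. The lowest adjusted p was that of Eif1a for Myc_KO against Max_KO (0.0506, lower in both Myc_KO libraries than in either Max_KO library) and for double_KO against Myc_KO (0.094). Under alternatives some passed: with a model term for the series of title numbers (30s or 40s), Eif1a and Eif5a2 were lower in Myc_KO than in Max_KO, by -0.38 and -0.87 on the log2 scale (adjusted p = 0.022 and 0.00473). Both controls have title numbers in the 30s. The knock-out libraries in the 40s are those with Eif2s3y, so within the knock-outs series and sex cannot be told apart. Of the 64 members, 57 had a value above 0 in double_KO minus Myc_KO and 47 in double_KO minus Max_KO. Among all 12489 tested genes the counts were 6475 and 6116. These differences share libraries with each other.

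The change in double_KO was closer to 0 than the sum of the changes in Myc_KO and Max_KO for 32 members that passed a test of that difference. This interaction, the value of double_KO plus that of the control less those of Myc_KO and Max_KO, passed for 32 of 64 members, 27 above 0 and 5 below, where 27.3% of all tested genes passed, 12.3% above and 15% below. The 27 above 0 all fell in Myc_KO, and among them were Eif4ebp1 (1.67, adjusted p = 0.00224) and Eef1b2 (1.37, adjusted p = 0.000877). For Eef1b2 a log2 change of -1.34 in Myc_KO and -1.14 in Max_KO stood beside -1.10 in double_KO. The 5 below 0 were Eif2ak1, Eif2ak2, Eif2ak3, Eif4ebp2 and Eif4g2, all of which rose in each knock-out group. Because the controls enter the interaction and every change with the same 2 libraries, a deviation of a control library moves them together, and without control 1 the interaction passed for 20 members and without double_KO 2 for 21.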

How the data were processed

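RNA sequencing of messenger RNA gave 1 value per gene and library for 8 libraries in 4 groups of 2. Per the submitters' processing notes, CASAVA 1.8, cutadapt, RSEM 1.2.3 and GRCm38 were used. The sources used here do not give the strand setting, annotation or gene filter. The deposited values are on a log2 scale. They matched estimated reads plus 0.5, as a share of an effective library size, so RPM and estimated reads were recovered from them. Genes are 15622 with a symbol and 59 without.

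Groups follow the sample titles. The 12489 genes with at least 1 RPM in 2 or more libraries were fitted together with limma 3.58.1 (R 4.3.3; lmFit, then eBayes with a trend; residual df 4, prior df 4.23), with Benjamini-Hochberg adjustment across all of these genes. The script was tested on simulated data. The 14883239 to 17908061 estimated reads per library set the counting precision, and with 2 libraries a group the spread between libraries limits the tests. Alternatives were other filters, scalings, a pseudocount of 1 RPM, groups from the descriptions, the 6 libraries without conflicting labels, each library left out, only the groups compared, a replicate block, a term for the series of title numbers (30s or 40s) and eBayes without a trend.

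Members and lists were chosen with earlier results of these data known. Named in every case were 20 members of central role; further named members were the 3 with the lowest p of each role, the 5 highest and lowest changes per comparison among those that passed, and up to 5 for the interaction; of other lists, up to 3 genes that passed. Remaining members were given to complete their families. Exon lengths for values per kb came from GENCODE vM21, promoters from RefSeq GRCm38.p6, and tables and figures were made with Python 3.11.15 and matplotlib 3.10.9.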

Additional observations from a re-analysis of the deposited data

Results flagged for a closer look

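For 32 members the change in double_KO differed from the sum of the changes in Myc_KO and Max_KO, by limma's test of the interaction with Benjamini-Hochberg adjustment over all tested genes. The largest positive interactions on the log2 scale were 1.67 for Eif4ebp1, 1.37 for Eif4ebp3, 1.37 for Eef1b2 and 1.01 for Eef1g. Other elongation factors had 0.569 (Eef1a1), 0.882 (Eef1d), 0.57 (Eef1e1) and 0.56 (Eef2). eIF3 subunits had 0.589 (Eif3b), 0.585 (Eif3d), 0.624 (Eif3e), 0.709 (Eif3f), 0.553 (Eif3g), 0.685 (Eif3h), 0.722 (Eif3i), 0.983 (Eif3k), 0.69 (Eif3l) and 0.444 (Eif3m). Cap-binding and eIF4F genes had 0.813 (Eif4a1), 0.424 (Eif4b) and 0.751 (Eif4e2). The remaining values above 0 were 0.444 (Eif1a), 0.71 (Eif2a), 0.645 (Eif2b2), 0.526 (Eif2s2), 0.808 (Eif5a) and 0.598 (Eif6). Below 0 were -0.477 (Eif2ak1), -0.99 (Eif2ak2), -0.854 (Eif2ak3), -0.653 (Eif4ebp2) and -0.624 (Eif4g2). The 2 control libraries enter each of these values with the knock-out changes.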

How the results depend on the processing

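Of 75 calls for named members against the control, 49 were kept under all 23 alternatives, 25 were lost under at least 1 and 5 turned direction. The 5 arose with quantile normalization, where log2 changes were 0.15 for Eef1a1 in Max_KO and in double_KO (adjusted p = 0.412 and 0.414), and for Eef2 0.19 in Myc_KO, 0.25 in Max_KO and 0.31 in double_KO (limma, adjusted p = 0.189, 0.107 and 0.0537); the cause was not tested. Leaving out 1 library at a time gave 5 to 8 members higher and 21 to 32 lower in Myc_KO, 6 to 7 and 15 to 29 in Max_KO, and 6 to 10 and 10 to 19 in double_KO; these fits had fewer libraries, and a lone library was assumed to vary like the others. Scaled to the same total, 11, 12 and 13 members rose and 23, 20 and 16 fell, and with the 6 libraries without conflicting labels 11 fell in double_KO. For Myc_KO against Max_KO 0 members passed as analysed, 1 with a filter at 5 RPM, 1 on log2(RPM + 1), 2 with a term for the series of title numbers, 2 with the presence of Y-linked transcripts as a term and 5 with title numbers in the 30s alone. For double_KO against Myc_KO 2 passed with the term for title numbers and 1 with the 30s, and for double_KO against Max_KO 0 passed under every alternative. The interaction passed for 32 members as analysed, 20 with groups from the descriptions, 20 to 28 without 1 library, and 16 with the replicate block. The term for Y-linked transcripts and the choice of the 30s were added after the data had been seen. Within the knock-outs, the series of title numbers and sex cannot be told apart.

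With groups from the descriptions, correlations of deviations from the group means between libraries of the same replicate number ran from -0.26 to 0.33. By the titles, the libraries that this grouping joins as Myc_KO, and those it joins as double_KO, differ in genotype. Libraries of the same number also differ in part in the presence of Eif2s3y. These correlations therefore cannot show whether the numbers pair the libraries. With the groups analysed, both Myc_KO libraries carry number 2 and both double_KO libraries number 1, so that no pairing of these groups is possible and a block is in part confounded with genotype. With that number as a replicate block, 8 members rose and 26 fell in Myc_KO, 7 and 26 in Max_KO and 7 and 18 in double_KO. With the block and groups from the descriptions the counts were 8 and 30, 8 and 28, and 10 and 24. Eef2kmt, at 7.57 to 13.2 RPM, had a standard error of 0.26 on the log2 scale; the share of this due to depth was not tested.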
